A study of Macaca mulatta with 4 samples.

Results

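The genes described here are 10 genes of the response to low oxygen and energy stress: DDIT4, PFKFB3, BHLHE40, VEGFA, ADM, EGLN3, HIF3A, LDHA, PDK1 and NDRG1. They were taken by symbol from a table of read counts over 33618 genes in prefrontal cortex of rhesus macaques. All 10 were found, and all 10 passed the filter on low counts, which left 17693 genes in all. DDIT4, PFKFB3 and BHLHE40 had been noted for their difference in earlier results of the same comparison, and the other 7 were added for their function with those results known. Their differences between the groups are therefore given as a description. Counts of calls among them stand only beside the share over all genes, and nothing is read from them.

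Cells sense oxygen through the hypoxia-inducible factors (HIFs). With oxygen present, the EGLN prolyl hydroxylases mark the HIF alpha subunits, and the VHL protein directs them to degradation. When oxygen is short the alpha subunits persist, pair with ARNT and switch on genes of glycolysis, vessel growth and metabolic restraint. Several of the same genes also answer to other signals. DDIT4 is induced by glucocorticoids and by energy stress, and BHLHE40 belongs to the circadian feedback system.

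RNA was sequenced in 4 libraries of wild type brain, 2 labelled control (agent none) and 2 labelled sevoflurane. Sevoflurane is a volatile anaesthetic given by inhalation. According to the protocols in the labels, infants breathed it at about 2.5 to 3% in 3 sessions of 4 hours, the first near postnatal day 7 and the others 14 and 28 days afterwards, and prefrontal cortex was collected right after the third session. Replicates carry the numbers 2 and 3 in both groups. Whether they are separate animals is not stated, so the spread between them may be technical. How control animals were handled, and what gas the anaesthetic was carried in, is not stated in the labels. Total counts ran from 7793757 (control replicate 3) to 11706115 (sevoflurane replicate 3). The main axis of variation between libraries (52.3% of the variance of log2 CPM) set control replicate 3, which has the fewest counts, far from the other 3, with a score of 59.6 beside scores from -32 to -3.1. Of 10 neuron markers, among them SNAP25, SYT1 and RBFOX3, 10 had counts in every library. These are bulk samples, so a change in the number of cells of a type and a change in RNA per cell cannot be told apart.

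The 10 genes did not move as 1 block. DDIT4 was higher in both sevoflurane libraries than in both controls, whereas PFKFB3 and BHLHE40 were lower in both. VEGFA, ADM, PDK1 and LDHA were raised in a single library, sevoflurane replicate 3, and lay at or near control levels in sevoflurane replicate 2. EGLN3 and NDRG1 differed little, and HIF3A was somewhat higher in both sevoflurane libraries. Levels are given as CPM, the reads of a gene relative to all reads of its library, with library sizes adjusted by edgeR's TMM method. Log2 fold changes are sevoflurane against control, from edgeR's quasi-likelihood fit over all 17693 genes, with their standard error (SE).

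**Figure D1:**
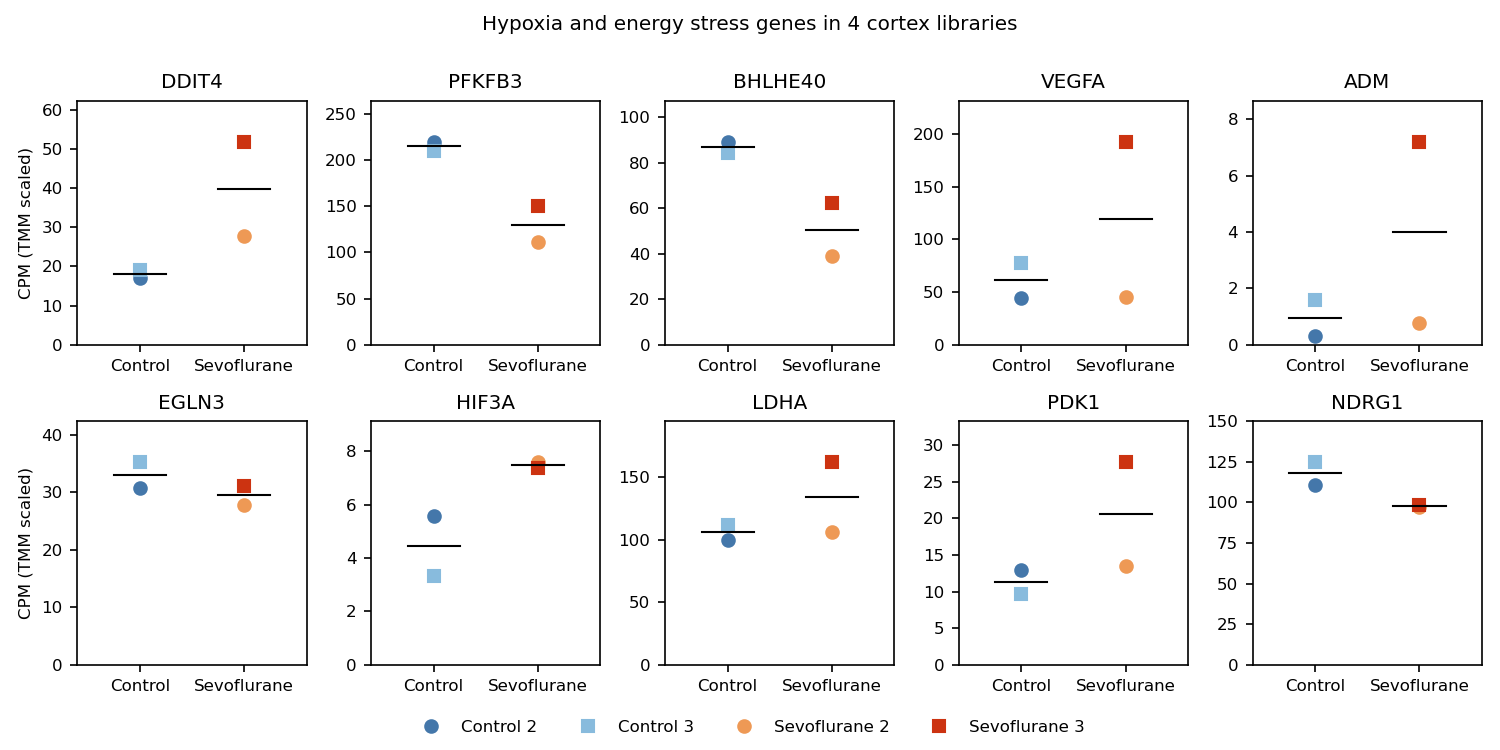
CPM of each of the 10 genes in the 4 libraries (vertical axis from 0, each panel with its own scale), with circles for replicate 2, squares for replicate 3 and a line at the mean of each group. Sevoflurane replicate 3 stands above the other 3 libraries for DDIT4, VEGFA, ADM, LDHA and PDK1, while both sevoflurane libraries lie below both controls for PFKFB3, BHLHE40 and NDRG1.

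At an adjusted p under 0.05, edgeR called none of the 10 genes and 0.599% of all genes tested (0.0622% higher and 0.537% lower). At an unadjusted p under 0.05 it passed 4 of the 10, beside 9.92% of all genes. DESeq2 called 3 of the 10 (DDIT4, PFKFB3 and BHLHE40), beside 2.06% of the 13576 genes to which it gave an adjusted p. ADM received none from it. Limma-voom called 0 of the 10, beside 0.622% of all genes. The likelihood ratio test of edgeR called the same 3 beside 2.49%. The 2 groups did not overlap for 6 of the 10 genes (3 higher and 3 lower after sevoflurane), beside 41.2% of all genes. The genes were chosen with this comparison known, and these counts support nothing. The median log2 fold change was 0.54 over the 10 genes and 0.00 over all genes tested. Without sevoflurane replicate 3 the median of the 10 was -0.24.

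The oxygen-sensing machinery itself comes first. HIF3A, an alpha subunit whose shorter forms restrain the other HIFs, had 5.56 and 3.32 CPM in control replicates 2 and 3 and 7.60 and 7.38 CPM in sevoflurane replicates 2 and 3. The sevoflurane libraries were nearly equal and both above the controls, which differed more from each other. Its log2 fold change was 0.74 (SE 0.36) and ranged from 0.43 without control replicate 3 to 1.17 without control replicate 2. The gene rests on few reads, between 25 and 89 counts per library. EGLN3, a HIF hydroxylase that is itself a HIF target, had 30.7 and 35.3 CPM in controls and 27.8 and 31.1 CPM after sevoflurane. The groups overlapped, and the log2 fold change was -0.16 (SE 0.18).

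The other HIF subunits and sensors were read in the same fit. Of 15 tested genes of this machinery, none was called by edgeR, DESeq2 or limma-voom. In edgeR 1, EPAS1, had an unadjusted p under 0.05, beside 9.92% of all genes. Over the list the median was 0.01. HIF1A, the alpha subunit of the acute response, had 129 ± 12.4 CPM in controls and 145 ± 3.33 CPM after sevoflurane (SD, n = 2 per group; log2 fold change 0.17, SE 0.13, edgeR adjusted p = 0.755). EPAS1, the HIF-2 alpha subunit, had 403 ± 63.8 and 304 ± 35.6 CPM (-0.41, SE 0.15, edgeR adjusted p = 0.37), with -0.24 without control replicate 3. EGLN1, the main oxygen sensor of the family, had a log2 fold change of 0.27 (SE 0.13), EGLN2 0.01 (SE 0.18), ARNT -0.22 (SE 0.14) and VHL 0.33 (SE 0.23). HIF proteins are controlled mainly by degradation, and protein was not measured.

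Secreted signals showed the widest gap between the sevoflurane libraries. VEGFA, the growth factor that drives vessel sprouting, had 44.1 CPM in control replicate 2, 77.8 in control replicate 3, 44.9 in sevoflurane replicate 2 and 193 in sevoflurane replicate 3. Sevoflurane replicate 2 was thus at the level of the lower control, and sevoflurane replicate 3 was 2.48-fold above the next library. Between the sevoflurane libraries the ratio was 4.29 (95% exact binomial interval of the counts 3.90 to 4.73). The controls too differed beyond counting error, with a ratio of 1.76 (1.56 to 2.00) for replicate 3 over replicate 2. Such intervals cover counting error only. The log2 fold change was 0.97 (SE 0.53), with -0.44 (SE 0.28) without sevoflurane replicate 3 and 1.67 (SE 0.24) without sevoflurane replicate 2.

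ADM, the vessel-dilating peptide adrenomedullin, was scarce. It had 3 and 12 counts in control replicates 2 and 3 (0.293 and 1.59 CPM), 9 counts in sevoflurane replicate 2 (0.769 CPM) and 85 counts in sevoflurane replicate 3 (7.21 CPM). As for VEGFA, sevoflurane replicate 2 lay between the controls and sevoflurane replicate 3 above all. The ratio between the sevoflurane libraries was 9.38 (4.72 to 21.2). The controls differed as well, with a ratio of 5.44 (1.47 to 30) for replicate 3 over replicate 2, and the 2 intervals overlap. The log2 fold change of 2.15 (SE 1.03) became -0.24 (SE 1.48) without sevoflurane replicate 3.

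The receptors of these ligands were mostly level. Of 14 tested ligands and receptors of both systems, none was called by edgeR, DESeq2 or limma-voom. In edgeR 0 had an unadjusted p under 0.05, beside 9.92% of all genes. The median of the 14 was -0.07. FLT1, the VEGF receptor 1, had 37.6 and 38.3 CPM in controls, 30.2 in sevoflurane replicate 2 and 57.4 in sevoflurane replicate 3, which was again the high library. KDR, the main signalling receptor for VEGFA, had a log2 fold change of -0.04 (SE 0.17). For the adrenomedullin receptor, CALCRL had -0.01 (SE 0.20) and its partner RAMP2 -0.23 (SE 0.26). VEGFC, a ligand of lymphatic vessels, was the lowest of the list at -0.78 (SE 0.59, edgeR adjusted p = 0.748), with -0.36 without control replicate 2. Endothelial markers did not peak with VEGFA: the summed level of 10 markers was 208 and 223 CPM in controls, 224 in sevoflurane replicate 2 and 180 in sevoflurane replicate 3, with none at 0.

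Metabolic enzymes follow. PFKFB3, which makes the allosteric activator of phosphofructokinase and so speeds glycolysis, had 220 and 210 CPM in controls and 111 and 150 CPM after sevoflurane. Controls were close together, and both sevoflurane libraries were below them, replicate 2 the lowest. PFKFB3 had a log2 fold change of -0.72 (SE 0.16), which is 0.605 of the control level, with -0.96 (SE 0.25) without sevoflurane replicate 3 and -0.52 (SE 0.24) without sevoflurane replicate 2. Its paralog PFKFB2 had 112 and 75.3 CPM in controls and 62.8 and 64.1 CPM after sevoflurane (-0.57, SE 0.19, edgeR adjusted p = 0.328), with -0.25 without control replicate 2. PFKFB4 had 22 and 24 CPM against 21.9 and 32.5 CPM (0.24, SE 0.23), and PFKFB1, with 0 to 2 counts per library, was not tested.

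LDHA, the lactate dehydrogenase subunit that favours lactate formation, had 99.8 and 112 CPM in controls, 106 in sevoflurane replicate 2 and 162 in sevoflurane replicate 3. Only the last library left the control range. The log2 fold change was 0.34 (SE 0.19), and 0.00 (SE 0.25) without sevoflurane replicate 3. LDHA has processed copies in primate genomes, and the sources used here do not say how reads with several matches were counted. LDHB, the other main subunit, had 0.06 (SE 0.21).

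PDK1 phosphorylates and shuts pyruvate dehydrogenase, which keeps pyruvate out of the mitochondrial citric acid cycle. It had 12.9 and 9.68 CPM in controls, 13.5 in sevoflurane replicate 2 and 27.7 in sevoflurane replicate 3. Sevoflurane replicate 2 was only just above the higher control, and sevoflurane replicate 3 was 2.06-fold above it. The log2 fold change of 0.86 (SE 0.34) was 0.25 (SE 0.38) without sevoflurane replicate 3. Its paralog PDK4, induced by fasting and glucocorticoids, had 6.93 and 6.50 CPM in controls against 20.4 and 17.6 CPM, high in both sevoflurane libraries. PDK4 rose by 1.5 on the log2 scale (SE 0.24, edgeR adjusted p = 0.0322), and had adjusted p = 0.0605 without control replicate 3 and adjusted p = 0.0639 with no filter on low counts. PDK2 (0.07, SE 0.15) and PDK3 (-0.03, SE 0.26) were not called. PDK4 was the 1 called gene among 12 tested genes of pyruvate dehydrogenase control, beside 0.599% of all genes. The median of the 12 was 0.08, and the lowest member was DLAT, an enzyme subunit of the complex, at -0.13 (SE 0.21).

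**Figure D2:**
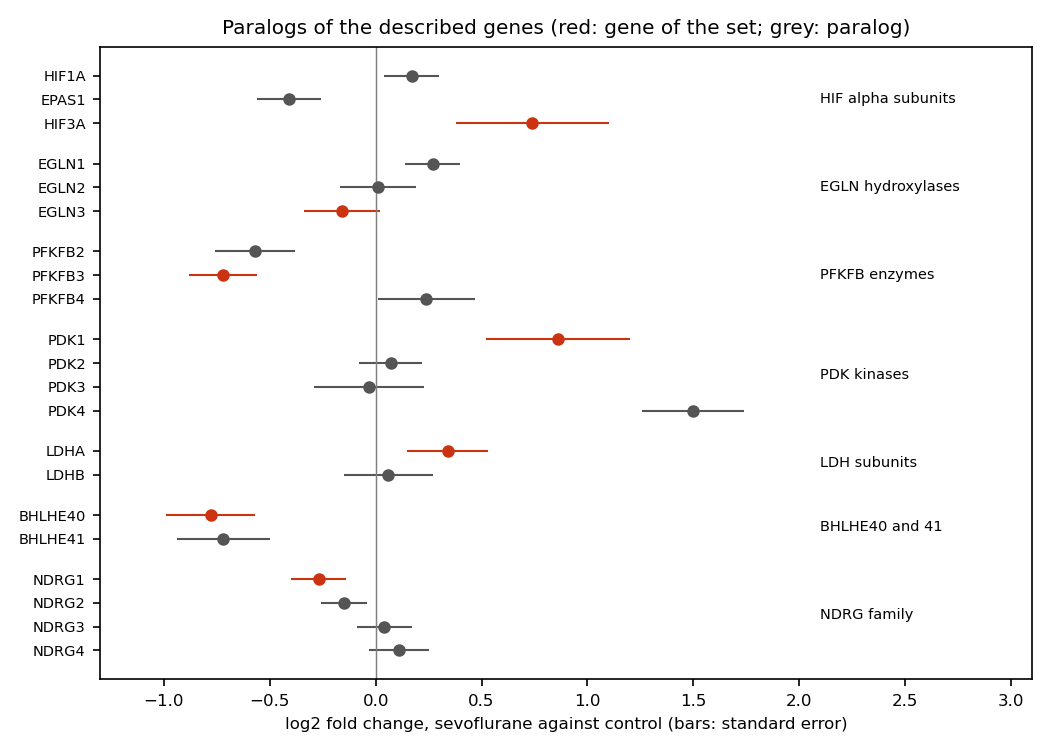
Log2 fold change (horizontal axis, sevoflurane against control; bars are the standard error) of the described genes in red and of their tested paralogs in grey, grouped by family. PDK1 and PDK4 lie above 0 beside PDK2 and PDK3 near 0, and PFKFB2, PFKFB3, BHLHE40 and BHLHE41 lie below 0.

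Of 25 tested genes of glucose uptake and glycolysis, PFKFB3 among them, edgeR and limma-voom called 0. DESeq2 called 1, PFKFB3, which was chosen from this comparison, beside 2.06% of the genes it gave an adjusted p. At an unadjusted p under 0.05 edgeR passed 5 higher and 2 lower, PFKFB3 among the lower, beside 9.92% of all genes. The median of the 25 was 0.11. SLC2A1, the glucose transporter of the blood-brain barrier, had 91.3 ± 4.44 and 108 ± 5.86 CPM (0.23, SE 0.13, edgeR adjusted p = 0.636). The highest value was that of SLC16A3, the lactate exporter MCT4, with 1.85 and 4.77 CPM in controls and 5.98 and 10 CPM after sevoflurane (1.30, SE 0.48, edgeR adjusted p = 0.391). Leaving out control replicate 2 gave SLC16A3 a value of 0.74, and leaving out control replicate 3 gave 2.1. HK2, the inducible hexokinase, had 16.7 and 18.4 CPM in controls, 13.1 in sevoflurane replicate 2 and 34.1 in sevoflurane replicate 3. It was picked out after its values were seen.

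DDIT4 (REDD1) restrains the growth kinase complex mTORC1 when oxygen or energy runs low. It had 17.0 and 19.0 CPM in controls, 27.7 in sevoflurane replicate 2 and 51.9 in sevoflurane replicate 3. The controls were close, both sevoflurane libraries exceeded them, and the sevoflurane libraries differed from each other by a ratio of 1.88 (1.64 to 2.15). Mean levels were 18 ± 1.4 and 39.8 ± 17.1 CPM, a log2 fold change of 1.15 (SE 0.28). It was 0.63 (SE 0.32) without sevoflurane replicate 3 and 1.53 (SE 0.29) without sevoflurane replicate 2. The paralog DDIT4L had 4 to 16 counts per library and was not tested.

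Among 25 tested genes of energy stress, AMPK and mTORC1 control, DDIT4 had the highest value. It was chosen from this same comparison, so nothing is read from its rank or its call. In that list edgeR and limma-voom called none. DESeq2 called 1 (DDIT4), beside 2.06% of the genes it gave an adjusted p. At an unadjusted p under 0.05 edgeR passed 4 higher, DDIT4 among them, and 1 lower, beside 9.92% of all genes. The list had a median of 0.09. The stress-induced mTORC1 inhibitor SESN1 had 0.51 (SE 0.20, edgeR adjusted p = 0.416; 0.31 without control replicate 3), and SESN2 had -0.21 (SE 0.21). TXNIP, a glucose-induced inhibitor of glucose uptake, had 76.7 and 49.9 CPM in controls and 88.9 and 98.6 CPM after sevoflurane (0.56, SE 0.20, edgeR adjusted p = 0.364), with 0.29 without control replicate 3 and 0.91 without control replicate 2. ARRDC4, its relative under the same glucose-sensing factor, was the lowest of the list at -0.68 (SE 0.26, edgeR adjusted p = 0.416), with -0.19 without control replicate 2 and -1.04 without control replicate 3. The neighbouring response to amino acid shortage and misfolded protein held 14 tested genes, none called by edgeR, DESeq2 or limma-voom, with a median of -0.08. In it 1 higher and 1 lower had an unadjusted p under 0.05, beside 9.92% of all genes. The extremes of that list were DDIT3 (CHOP) at 0.52 (SE 0.27) and PHGDH, of serine synthesis, at -0.47 (SE 0.15).

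DDIT4 also belongs to the genes that glucocorticoids induce. Of 19 tested, edgeR called FKBP5 and PDK4 higher and did not call 17, with a median of 0.08. DESeq2 called 3 higher and limma-voom 1. At an unadjusted p under 0.05 edgeR passed 7 higher and 2 lower, beside 9.92% of all genes. FKBP5, a co-chaperone in the receptor's own feedback loop, rose from 2.05 and 3.32 CPM to 11.1 and 18.7 CPM (2.49, SE 0.38, edgeR adjusted p = 0.0259). Without control replicate 2 it had adjusted p = 0.0578, by limma-voom adjusted p = 0.0596 and with no filter adjusted p = 0.0532. As with DDIT4, both sevoflurane libraries were above the controls and replicate 3 was the higher. SGK1, a kinase induced by glucocorticoids, was the lowest of the list at -1.05 (SE 0.52, edgeR adjusted p = 0.577), with -0.33 without control replicate 3 and -1.55 without control replicate 2.

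BHLHE40 (DEC1) is a transcriptional repressor induced by HIF, by neuronal activity and by the clock. It had 89.2 and 84.2 CPM in controls and 38.9 and 62.1 CPM after sevoflurane. Both sevoflurane libraries were below the controls, and replicate 3 was nearer to them. It had a log2 fold change of -0.78 (SE 0.21), with -1.16 (SE 0.28) without sevoflurane replicate 3 and -0.48 (SE 0.26) without sevoflurane replicate 2. Its paralog BHLHE41 (DEC2) had 24.4 and 30.9 CPM in controls and 15 and 18.6 CPM after sevoflurane (-0.72, SE 0.22, edgeR adjusted p = 0.271).

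Of 18 tested clock genes, edgeR and limma-voom each called 1 lower, and DESeq2 called 1 higher and 2 lower. At an unadjusted p under 0.05 edgeR passed 4 higher and 6 lower, beside 9.92% of all genes. The median was -0.02, with values on both sides of 0. PER2, a core clock repressor, fell from 142 and 116 CPM to 42.0 and 36.8 CPM (-1.71, SE 0.16, edgeR adjusted p = 0.00435). NR1D1 (REV-ERB alpha) had the highest value, 0.91 (SE 0.18, edgeR adjusted p = 0.0769). The labels do not state the time of day of sampling, and its part in the values of BHLHE40 was not tested.

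Immediate early genes, which neuronal firing switches on within minutes, were lower beside BHLHE40. Of 22 tested, edgeR called 8 lower and 0 higher, beside 0.537% and 0.0622% of all genes, with a median of -0.73. The lower count was 6 with no filter or with library size alone, and 13 with the replicate number as a block. NPAS4 fell by 3.24 on the log2 scale (SE 0.36, edgeR adjusted p = 0.00918), EGR4 by 2.31 (adjusted p = 0.00676), EGR1 by 2.08 (adjusted p = 0.00168) and ARC by 1.76 (adjusted p = 0.0038). NR4A1 (-1.63), FOS (-1.59), DUSP6 (-1.56) and NR4A3 (-1.49) were the others of the 8. FOS lost its call with no filter (adjusted p = 0.0775), without control replicate 2 (0.0725) or with scaling by library size only (0.0623), and NR4A1 with the first (0.064) and the last (0.054) of these. MAFF, a small Maf factor, was the highest at 1.65 (SE 0.47, edgeR adjusted p = 0.239). The part of neuronal activity in the lower BHLHE40 was not tested.

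NDRG1, a stress-responsive protein that in brain is made mainly by oligodendrocytes, had 111 and 125 CPM in controls and 97.1 and 98.3 CPM after sevoflurane. The sevoflurane libraries were nearly equal and just below the controls, and the log2 fold change was -0.27 (SE 0.13). Its relatives NDRG2 (-0.15, SE 0.11), NDRG3 (0.04, SE 0.13) and NDRG4 (0.11, SE 0.14) were not called. Markers of mature oligodendrocytes differed far more over the same libraries. Their summed level (12 of 12 genes in the table, none at 0) was 9400 and 14800 CPM in controls and 2450 and 3660 CPM after sevoflurane. Of the 12, edgeR called 11 lower, beside 0.537% of all genes. The part of oligodendrocytes in the value of NDRG1 was not tested.

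The pattern of sevoflurane replicate 3 was then followed through a wider list of HIF target genes. Of the 30 tested, 7 of which belong to the 10 genes, edgeR and limma-voom called 0. DESeq2 called 2 (DDIT4 and BHLHE40), both chosen from this comparison, beside 2.06% of the genes it gave an adjusted p. At an unadjusted p under 0.05 edgeR passed 8 higher and 2 lower, beside 9.92% of all genes. Leaving those 7 out, 6 higher and 1 lower of the remaining 23 had an unadjusted p under 0.05. The 23 had a median log2 fold change of 0.27. Without sevoflurane replicate 3 the median was 0.15, over 24 genes, as the filter on low counts was applied anew. Sevoflurane replicate 3 was the highest of the 4 libraries in 16 of these 23, beside 22.2% of all genes tested. It stood at least 1.5-fold above the next library in 5 of the 23, beside 1.61% of all genes, a limit set after the values were seen. None of the 23 had any other library that far above the rest. In all genes such a gap was seen in 2.06% for sevoflurane replicate 2, 3.46% for control replicate 3 and 1.78% for control replicate 2. Shares this small leave few or none among 23 genes, so nothing is read from that absence. Counted within each library against the mean of the controls, the median of the 23 was 0.11 in sevoflurane replicate 2 and 0.32 in sevoflurane replicate 3 (log2), beside 0.02 and 0.01 over all genes.

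Of the 5, ANKRD37, STC2, KDM3A and P4HA1 are described here, named after their values were seen. ANKRD37, a small ankyrin repeat protein, had 1.37 and 1.33 CPM in controls, 2.65 in sevoflurane replicate 2 and 7.64 in sevoflurane replicate 3. KDM3A, a histone demethylase, had 61.7 and 50.3 CPM in controls, 50.9 and then 111 CPM. P4HA1, a collagen prolyl hydroxylase, had 32.8 and 30.2 CPM in controls, 31.0 and then 60.7 CPM. In KDM3A and P4HA1, as in VEGFA, sevoflurane replicate 2 was within or close to the control range. STC2, a secreted glycoprotein, had 8 to 19 counts in the other 3 libraries and 68 in sevoflurane replicate 3.

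**Figure D3:**
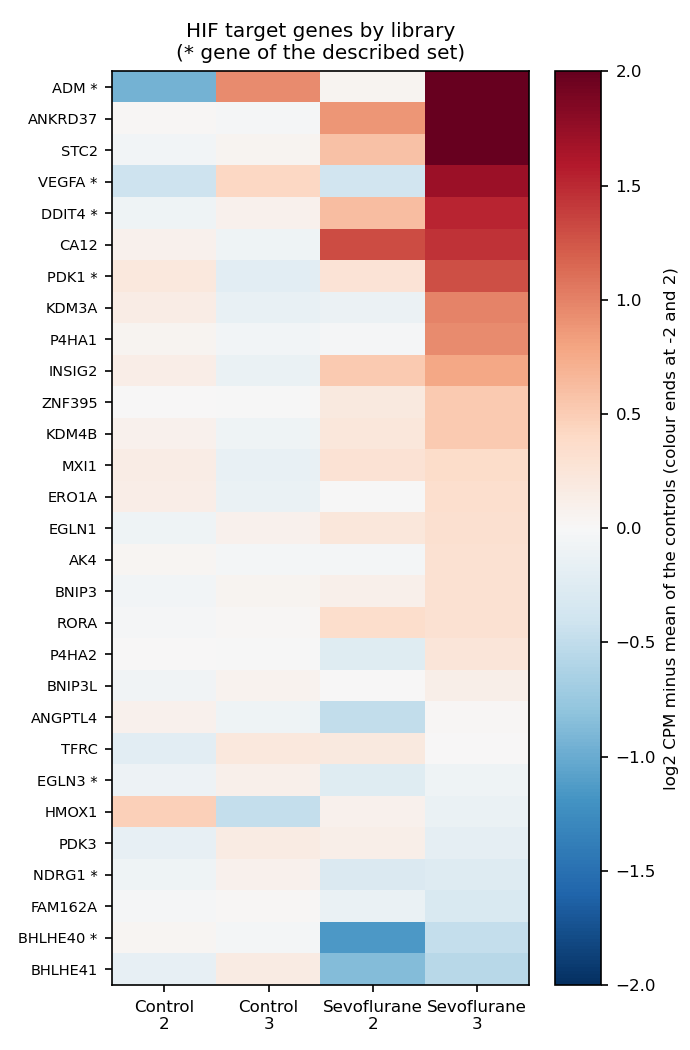
Log2 CPM minus the mean of the 2 controls (colour, ends at -2 and 2) for 29 of the 30 tested HIF target genes in rows and the 4 libraries in columns, in order of the value in sevoflurane replicate 3; an asterisk marks the described genes. Red is densest in the column of sevoflurane replicate 3, and BHLHE40 and BHLHE41 are blue in both sevoflurane columns.

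Library make-up was compared beside this pattern. None of the 10 marker lists of brain cell types had its highest summed level in sevoflurane replicate 3. Fibroblast markers of the meninges and vessels peaked in sevoflurane replicate 2 (675 CPM, against 240 in sevoflurane replicate 3 and 267 and 135 in controls), and 10 of their 10 genes were highest there. Red blood cell markers summed to 52.7 and 26.0 CPM in controls, 27.2 in sevoflurane replicate 2 and 39.5 in sevoflurane replicate 3. ALAS2 and SLC4A1 of that list were at 0 in at least 1 library. The sevoflurane libraries were of nearly equal depth, with 11703857 and 11706115 counts.

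**Figure D4:**
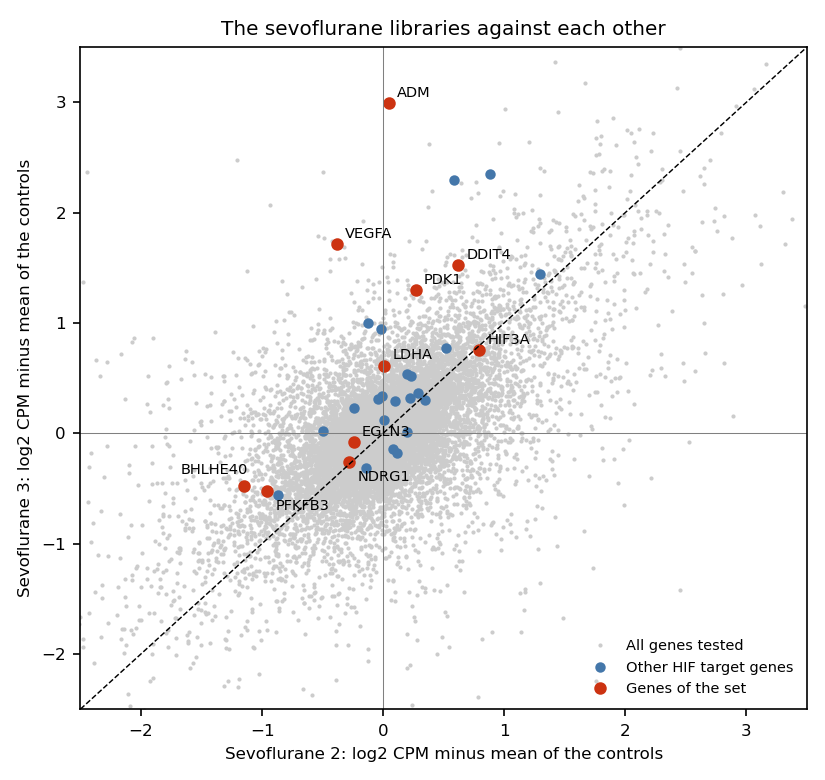
Log2 CPM minus the mean of the controls in sevoflurane replicate 2 (horizontal) and sevoflurane replicate 3 (vertical), with 1 point per gene tested (57 lie outside the range drawn), other HIF target genes in blue and the described genes in red; the dashed line marks equal values. VEGFA, ADM, DDIT4, PDK1 and LDHA lie above the line, BHLHE40 and PFKFB3 also lie above it with both values below 0, and HIF3A, EGLN3 and NDRG1 lie close to it.

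Because 1 library carried much of the difference, each gene was refitted without either sevoflurane library. DDIT4, HIF3A and PDK1 stayed above 0 in both fits, and PFKFB3, BHLHE40, EGLN3 and NDRG1 stayed below 0. VEGFA and ADM changed sign, and LDHA came to 0.00. Leaving out control replicate 3 instead gave 1.23 for DDIT4, -0.76 for PFKFB3, -0.82 for BHLHE40, 1.43 for VEGFA, 3.72 for ADM and 0.68 for PDK1. A fit without a sevoflurane library compares 1 sevoflurane library with 2 controls and takes its spread from the controls.

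**Figure D5:**
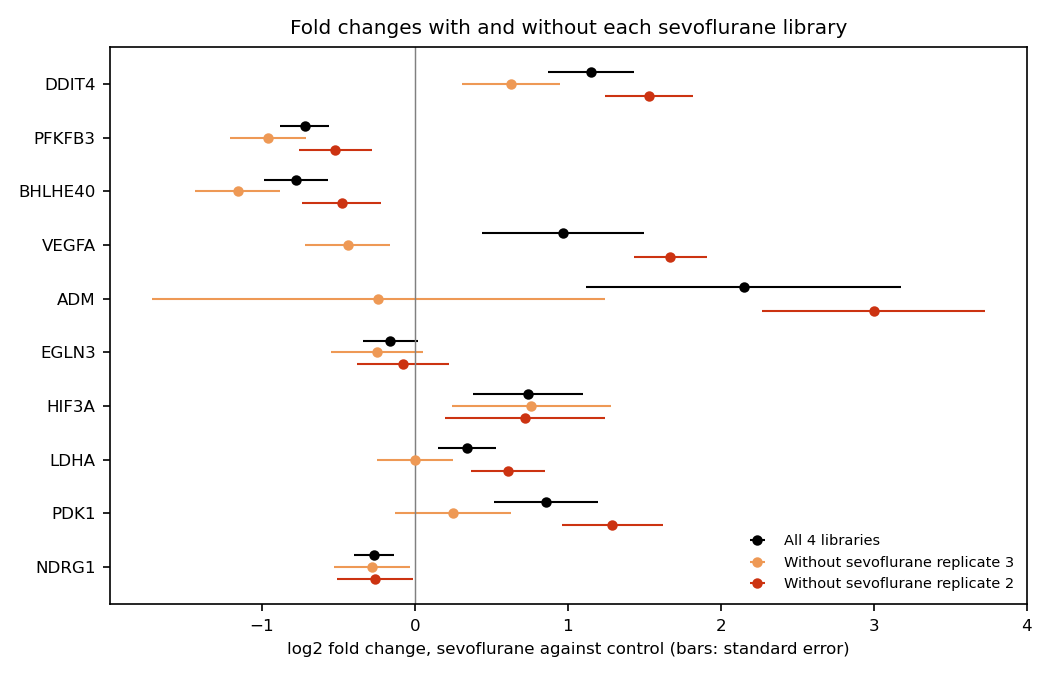
Log2 fold change of each gene (horizontal axis; bars are the standard error) with all 4 libraries in black, without sevoflurane replicate 3 in orange and without sevoflurane replicate 2 in red. The orange and red points are far apart for VEGFA, from -0.44 to 1.67, and for ADM, from -0.24 to 3.00, and close together for HIF3A and NDRG1.

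The genes whose pattern over the 4 libraries was nearest to that of the 3 noted genes were taken by the Euclidean distance of centred log2 CPM, among 11525 other genes with a symbol and a mean of at least 5 CPM. For DDIT4 the nearest was CD163, a macrophage scavenger receptor induced by glucocorticoids, at a distance of 0.111, with 14.2 and 15.9 CPM in controls and 23.7 and 47.9 CPM after sevoflurane. ICOSLG (0.193) and NTSR1 (0.27) followed. For PFKFB3 the nearest were RSRP1 (0.0611) and STKLD1 (0.0733). For BHLHE40 they were PPFIBP2 (0.0976), GPT (0.129) and TMEM123 (0.14). With 4 libraries such a likeness is a description only.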

How the data were processed

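The authors deposited raw read counts per gene for the 4 libraries. HISAT2 was the aligner, per the submitters' processing notes (version not given). What counted the reads, on which build and annotation and with which strand setting, is not given in the sources used, so overlapping, antisense and near-identical genes are uncertain, and no coordinates or sequences are given.

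The counts went into edgeR 4.0.16 under R 4.3.3: filterByExpr (at least 10 counts at the median depth and 15 in total), TMM scaling, and the two-sided quasi-likelihood test on group, with Benjamini-Hochberg adjustment over 17693 genes. The SE is the log2 fold change divided by the root of F. Log2 CPM used a prior count of 2. Total counts ranged from 7793757 to 11706115. With 2 libraries against 2 an exact two-sided permutation test cannot go below p = 0.333, so none was made.

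On counts simulated from these genes, 50% of changes of 2-fold and 76% of changes of 4-fold were called, with 11 calls among unchanged genes.

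The members and the 21 gene lists (285 genes, 5 not found, 4 matched through a RefSeq gene number or another name) were chosen with earlier results of these data known. Named are the 10 genes, a fixed set of paralogs and partners, the called, highest and lowest members (mean of at least 1 CPM) of each list that is not a marker list, and the 3 nearest patterns. A few genes that this rule names are not reported here. Alternatives were DESeq2 1.42.0 and its size factors, no filter or a stricter one, library size alone, limma-voom (limma 3.58.1), the likelihood ratio test, a replicate block and leaving out each library.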

Additional observations from a re-analysis of the deposited data

How the results depend on the processing

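With all 4 libraries edgeR called 11 genes higher and 95 lower, and 0 of the 10 described genes. Over all genes the higher and lower counts were 60 and 219 by DESeq2, 137 and 304 by the likelihood ratio test, and 3 and 57 with no filter. Limma-voom called 7 higher. Leaving out 1 library gave 27 to 81 higher and 118 to 232 lower. Of the described genes, DESeq2 and the likelihood ratio test each called 1 higher (DDIT4) and 2 lower (PFKFB3 and BHLHE40), and leaving out 1 library gave 0 to 4 higher and 0 to 2 lower. The calls depended on the test, and the cause was not tested. The described genes were chosen with this comparison known, so nothing is read from their counts of calls. With the replicate number as a block there were 170 higher and 341 lower over all genes (2.89% called), and 2 higher (DDIT4 and VEGFA) and 2 lower of the described genes. Whether the numbers pair the samples is not stated in the labels. The replicate differences of the 2 groups had a correlation of 0.01 over genes. With a single difference per group, that value cannot decide the question. Every alternative that kept all 4 libraries, the other tests and the block included, kept the sign of each described gene it tested, with DDIT4 at 1.08 to 1.17, PFKFB3 at -0.74 to -0.71 and BHLHE40 at -0.82 to -0.77.

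Leaving out 1 library turned the sign of VEGFA (-0.44 to 1.67) and ADM (-0.24 to 3.72). The same held for FLT1 (-0.33 to 0.60), HK2 (-0.42 to 0.96), KDM3A (-0.14 to 0.99), P4HA1 (-0.02 to 0.94), PFKFB4 (-0.07 to 0.50), LDHB (-0.17 to 0.26), PDK2 (-0.08 to 0.24), PDK3 (-0.19 to 0.13), DLAT (-0.31 to 0.07), EGLN2 (-0.16 to 0.20), NDRG3 (-0.10 to 0.20), NDRG4 (-0.06 to 0.31), KDR (-0.13 to 0.04) and CALCRL (-0.14 to 0.11). Such fits take the lone library of a group to vary like the other group. At this depth and number of libraries a 2-fold change can be missed, and ADM and HIF3A rest on few reads. So do other named genes, for example MAFF (9 to 56 counts per library), SGK1 (24 to 48), VEGFC (12 to 27), ANKRD37 (10 to 90) and SLC16A3 (19 to 118).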
